A study of Mus musculus with 12 samples.

Results

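Lysosomes are acidic organelles in which hydrolases cut proteins, glycans and lipids that arrive by endocytosis and autophagy. Their soluble enzymes are tagged with mannose-6-phosphate and sorted from the Golgi, small cofactors present lipids to the enzymes, and heavily glycosylated membrane proteins line and serve the organelle. Many of the genes carry an E-box in their promoter that is bound by Tfeb and its relatives, and quiescent neural stem cells (NSCs) are known for large lysosomal stores. The 35 genes described here are lysosomal enzymes, their cofactors, lysosomal membrane and cholesterol transport proteins and the factor Tfeb. They were taken as a list of gene symbols whose rule uses no measured value, and all 35 were found among the 45792 genes of the count files.

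The cells were primary forebrain NSCs of newborn mice, grown in serum-free medium with EGF and FGF. They were either WT or Ncf1-/-. The latter lack Ncf1 (p47phox), the subunit that activates the NADPH oxidase Nox2, and this loss lowers the production of reactive oxygen species. From 48 h after plating, Ncf1-/- cultures received recombinant mouse Igfbp2, a secreted binding protein of insulin-like growth factors, or vehicle, and RNA was taken after a further 48 h. The labels give 100 ng/ml of Igfbp2, and the methods of the study give a lower dose. The labels mark the WT and the vehicle-treated Ncf1-/- cultures alike, as nt, and the word vehicle is from the study's methods. WT cultures received no Igfbp2. There were 4 libraries of each of the 3 groups, which ask what loss of Ncf1 and the supply of Igfbp2 do to the transcriptome. A germline mutant differs from WT in every cell of the brain, and a culture is a mixture of the cells that the pup's forebrain gave.

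Total expected counts per library, which are estimated numbers of reads per gene, ranged from 18201622 to 34086554. Levels below are CPM, counts of a library scaled to a common total with factors from the trimmed mean of M-values (TMM). Ncf1 itself had between 1 and 7 counts in every library, so its RNA could not check the genotype labels. The cultures were not alike in their markers of neural cell types. The summed level of 10 oligodendrocyte markers was 10004, 10315, 1849 and 5792 CPM in WT replicates 1 to 4, against 222 to 279 CPM in vehicle-treated and 233 to 314 CPM in Igfbp2-treated Ncf1-/- libraries. The summed level of 8 NSC markers was 3201 to 5034 CPM in WT replicates 1, 2 and 4, 9019 CPM in WT replicate 3 and 8391 to 9221 CPM in all 8 Ncf1-/- libraries. These 8 genes did not share a direction. With vehicle against WT, edgeR called 3 of them higher and 4 lower at an adjusted p under 0.05. Of 12 microglia markers, 9 had 3 or fewer counts in every library, 2 of these had none, and their sum was 0.835 to 2.13 CPM over the 12 libraries. Astrocyte markers summed to 5830.4 to 11397 CPM in WT and 2272 to 3350.3 CPM in Ncf1-/- libraries. Neuron markers summed to 597 to 770.1 CPM in WT, 483 to 547 CPM with vehicle and 432 to 459 CPM with Igfbp2. In the same order, mesenchymal and vascular markers summed to 10.6 to 29.7, 4.36 to 6.08 and 8.97 to 10.9 CPM. The genes of this last list did not share a direction. With vehicle against WT, edgeR put 2 of 5 tested up and 2 down at an adjusted p under 0.05. Their log2 fold changes ran from -5.36 to 1.31, with a median of 0.23. Y-linked genes summed to 105 to 116 CPM in vehicle-treated, 7.79 to 9.18 CPM in Igfbp2-treated, and 111, 107, 118 and 6.46 CPM in the WT libraries, although the study's methods say that both treatments were given to cultures of each animal. Treatment and this sex-linked difference cannot be told apart here. The study's own code lists the library labelled WT replicate 4 as treated with apocynin, an inhibitor of Nox, in 1 of its sample sheets, so counts are also given without it.

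Tfeb and its relatives recognise the E-box CACGTG, in its longer form GTCACGTG. RefSeq promoter windows (mouse build GRCm38.p6, 250 bases before to 50 bases after the start) were held for 31 of the 35 members. Searched on both strands, CACGTG stood in 12 of these 31 (38.7%), against 2187 of 27025 genes (8.09%), and GTCACGTG, which contains CACGTG, in 9 (29.0%), against 689 genes (2.55%). The 9 are Arsa, Cln3, Ctsa, Ctsd, Gla, Glb1, Lamp1, Mcoln1 and Naglu, and the shorter form alone is in the windows of Ctsf, Ctsl and Gaa. The sites of 4 of the 9 are shown, those of the genes with the largest fold changes in either direction between Ncf1-/- and WT NSCs. Each is written 5′ to 3′ on the gene's own strand, upstream of the RefSeq start, with the site in capitals.
Gla: gtgagatctcgGTCACGTGagcaactctcg
Naglu: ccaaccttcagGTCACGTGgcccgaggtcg
Glb1: gctgcttctgaGTCACGTGgcctacagagg
Arsa: ttcaactcagtGTCACGTGttgtctgctc
The 30 bases of Gla lie at chrX:134601183-134601212 (minus strand), from position -207 relative to the start. Those of Naglu lie at chr11:101070008-101070037 (plus strand), from -86, and those of Glb1 at chr9:114401017-114401046 (plus strand), from -61. The 29 bases of Arsa lie at chr15:89477425-89477453 (minus strand) and end at the base before the start. These genes code for alpha-galactosidase A (Gla), alpha-N-acetylglucosaminidase (Naglu), beta-galactosidase (Glb1) and arylsulfatase A (Arsa), which remove terminal sugars or sulfate from glycolipids and glycosaminoglycans. A match of letters is a description and not a measured binding site.

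Levels of different genes were compared as CPM per kilobase of effective transcript length. The members were well expressed for these cells. In WT libraries the median of the 34 members with counts was 30.1 CPM per kilobase, against 8.03 for all genes tested, and 29 of the 34 lay above that median of all genes. The order began with Psap, the precursor of the saposins that lift lipids to their enzymes, at 388 ± 40.5 CPM per kilobase (SD, n = 4) in WT libraries. Lamp1, a main glycoprotein of the lysosomal membrane, followed at 283 ± 26.0, then the aspartic protease Ctsd at 206 ± 47.8 and the cysteine proteases Ctsb at 118 ± 45.6 and Ctsl at 90.2 ± 15.03. The SD intervals of Psap, Lamp1 and Ctsd did not overlap, while that of Ctsb overlapped with those of its neighbours Ctsd and Ctsl. Psap was also first in both Ncf1-/- groups, at 272 ± 9.16 with vehicle and 329 ± 18.5 with Igfbp2. Ctsd stood above Lamp1 only in the order of the Igfbp2-treated group, at 277 ± 25.4 against 233 ± 13.4. At the low end in WT libraries were the glycosidases Manba (4.05) and Gla (2.07) and the protease Ctsh (1.94). Ctss, the cathepsin of microglia and macrophages, had no count in any of the 12 libraries, which allows up to 0.165 CPM in the shallowest, and this bound covers counting error only.

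Of the 34 members tested, 11 had more and 8 had less RNA in vehicle-treated Ncf1-/- than in WT cells. The calls are those of edgeR's quasi-likelihood test at an adjusted p under 0.05. Among all 15706 genes tested, 28.9% were called higher and 28.2% lower, so the members' shares, 32.4% and 23.5%, are near the background. The median log2 fold change was 0.07 for the members and 0.02 for all genes. Glycosidases and lipid hydrolases supplied 9 of the 11 members that were higher. Membrane proteins and Tfeb supplied 5 of the 8 that were lower.

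**Figure D1:**
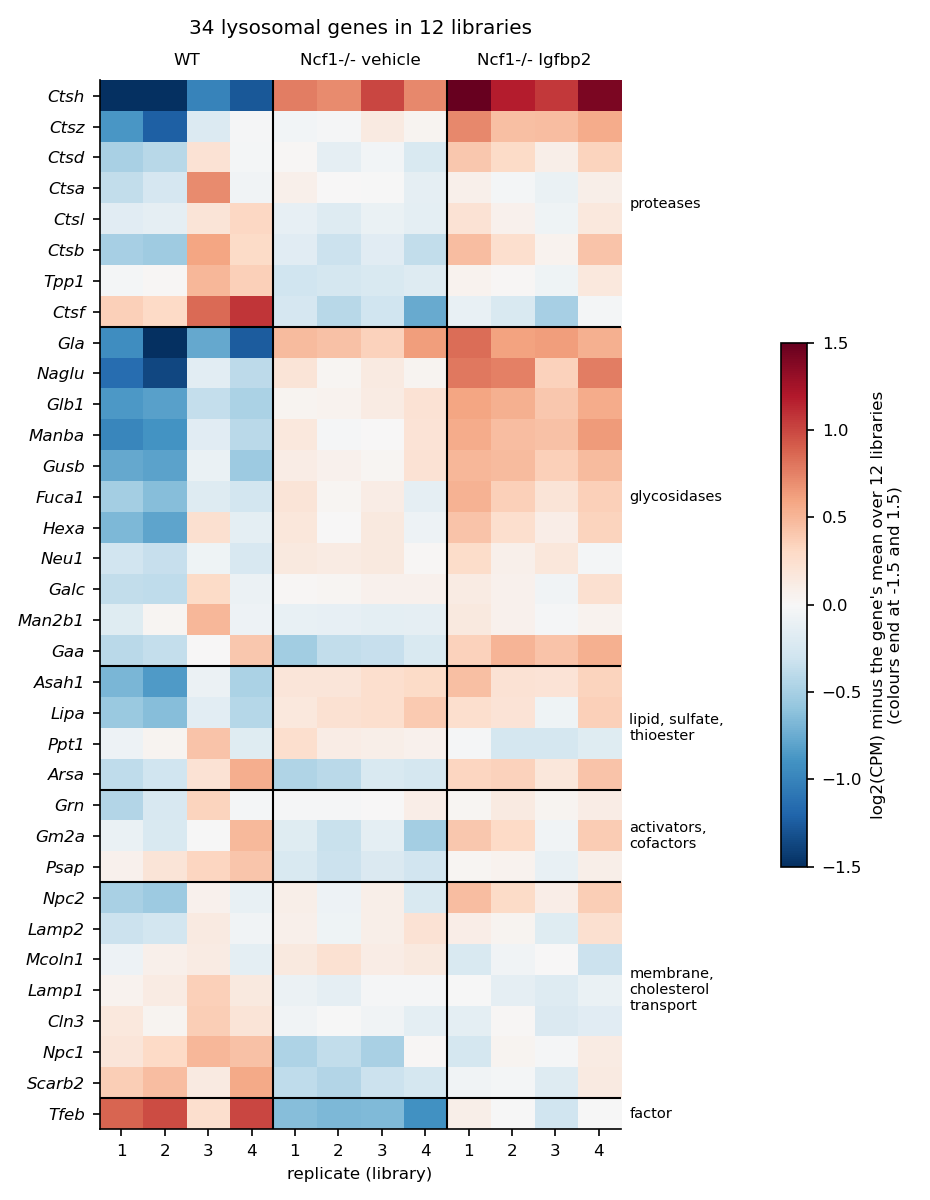
Heat map of the 34 members with counts (rows, ordered by role and by fold change) in the 12 libraries (columns, replicates 1 to 4 of each group), coloured by log2 CPM minus the gene's mean over the 12 libraries, with colours ending at -1.5 and 1.5. Glycosidases from Gla to Fuca1 are mostly blue in WT and red in Igfbp2-treated libraries, Tfeb is red in WT and blue in vehicle-treated libraries, and WT replicate 3 is the highest WT library for 25 of 34 members.

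Among the glycosidases, 7 of 11 were called higher and none lower in Ncf1-/- than in WT NSCs, and for all 7 every vehicle-treated Ncf1-/- library lay above every WT library. The largest difference was that of Gla, which cuts the terminal galactose from globotriaosylceramide. It had 6.23, 4.05, 6.97 and 5.01 CPM in the WT and 16.6, 16.1, 15.1 and 18.3 CPM in the vehicle-treated Ncf1-/- libraries. The groups were far apart, at 1.55 ± 0.15 on the log2 scale (fold change ± SE, edgeR adjusted p = 1.91e-06). Gla lies on the X chromosome. WT replicate 4, the WT library with little Y-linked RNA, is the one with 5.01 CPM, and a part of sex in the levels of Gla was not tested.

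Naglu, which takes part in the breakdown of heparan sulfate, had 11.1, 9.55, 22 and 18.7 CPM in WT and 27.97, 25.0, 26.98 and 25.3 CPM in vehicle-treated Ncf1-/- libraries. WT replicates 3 and 4 lay closest to the Ncf1-/- libraries but did not reach them, and the log2 fold change was 0.77 ± 0.21 (edgeR adjusted p = 0.00788). Glb1, whose activity at near neutral pH is the common stain for senescent cells, had 24.8, 25.6, 35.2 and 32.5 CPM in WT and 46.7, 46.7, 49.4 and 52.4 CPM in vehicle-treated Ncf1-/- libraries. Again no library overlapped, and the log2 fold change was 0.72 ± 0.11 (edgeR adjusted p = 8.2e-05). The other glycosidases called higher were the beta-mannosidase Manba (log2 fold change 0.66 ± 0.15), the beta-glucuronidase Gusb (0.62 ± 0.13), the fucosidase Fuca1 (0.45 ± 0.11) and the sialidase Neu1 (0.34 ± 0.08). Hexa, Galc, Man2b1 and the glycogen-degrading Gaa were not called, and their groups overlapped. The summed glycosidase level was 436, 433, 657 and 591 CPM in WT and 609.8 to 634 CPM in vehicle-treated Ncf1-/- libraries, so that WT replicate 3 lay above all 4 of the latter in the sum, which the abundant Hexa and Gaa weigh on.

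The proteases did not move together. Of 8 tested, 2 were called higher, 2 lower and 4 were not called. Ctsh, a cysteine protease that trims peptides from their amino end, had 1.09, 0.54, 3.30 and 2.73 CPM in WT and 11.2, 10.8, 13.2 and 10.9 CPM in vehicle-treated Ncf1-/- libraries. This was the largest fold change of all members, 2.53 ± 0.35 on the log2 scale (edgeR adjusted p = 4.49e-05), between a nearly silent and a low level. Ctsf, another papain-like cysteine protease, went the other way, with 45.0, 43.2, 63.6 and 74.3 CPM in WT and 29.7, 26.4, 28.5 and 20.9 CPM in vehicle-treated Ncf1-/- libraries. No WT library overlapped with an Ncf1-/- one, and the log2 fold change was -1.10 ± 0.18 (edgeR adjusted p = 0.000146).

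Tpp1, the tripeptidyl peptidase lost in a childhood form of neuronal ceroid lipofuscinosis, fell by 0.47 on the log2 scale (SE 0.11). Ctsz, a carboxypeptidase, was called higher (0.53 ± 0.20, edgeR adjusted p = 0.0373), but WT replicate 4 overlapped with the Ncf1-/- libraries. Its call was lost when any one of the vehicle-treated libraries or WT replicate 1 or 2 was left out (adjusted p = 0.0542 to 0.103). Ctsd, the major aspartic protease, had 318, 333, 518 and 436 CPM in WT and 450.3, 406, 431 and 379 CPM in vehicle-treated Ncf1-/- libraries. The vehicle-treated libraries lay inside the WT range, and Ctsd was not called (0.05 ± 0.14, edgeR adjusted p = 0.766). Ctsa, Ctsb and Ctsl were not called either.

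Of the 4 lipid, sulfate and thioester hydrolases, Asah1 and Lipa were called higher and Arsa and Ppt1 were not called. Asah1, the acid ceramidase, had 60.5, 53.8, 91.3 and 70.2 CPM in WT and 110.2, 111, 116 and 119 CPM in vehicle-treated Ncf1-/- libraries, with no overlap and a log2 fold change of 0.72 ± 0.13 (edgeR adjusted p = 0.000469). Lipa, which frees cholesterol and fatty acids from the esters in lipoproteins, had 16.01, 15.2, 21.1 and 17.5 CPM in WT and 26.3, 27.5, 28.04 and 30.8 CPM in vehicle-treated Ncf1-/- libraries. Its log2 fold change was 0.69 ± 0.12 (edgeR adjusted p = 0.000208), also with no overlap.

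**Figure D2:**
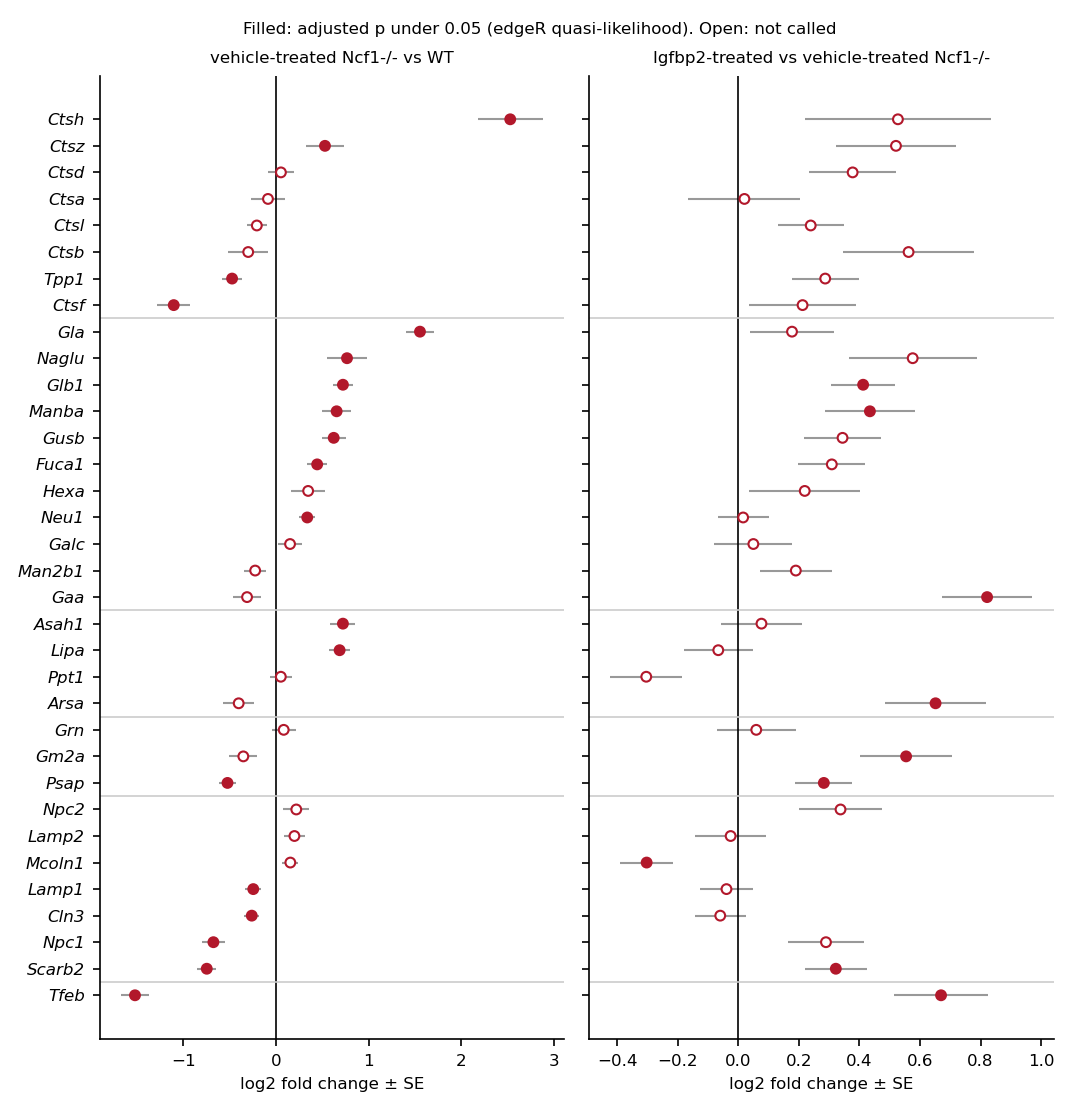
Log2 fold change ± SE of each of the 34 members, grouped by role, in vehicle-treated Ncf1-/- against WT (left) and in Igfbp2-treated against vehicle-treated Ncf1-/- NSCs (right, with a narrower axis). Filled points passed an adjusted p under 0.05, as 19 did on the left (11 higher, 8 lower) and 9 on the right (8 higher, 1 lower).

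The membrane and cholesterol transport proteins had 4 of 7 called lower and none higher in Ncf1-/- than in WT NSCs. Scarb2 (LIMP-2), which carries glucocerebrosidase to the lysosome, had 372, 396, 317 and 428 CPM in WT and 220.3, 213, 229.9 and 239.5 CPM in vehicle-treated Ncf1-/- libraries. The groups were well apart, and the log2 fold change was -0.75 ± 0.10 (edgeR adjusted p = 4.26e-05). Npc1, the membrane protein through which cholesterol leaves the lysosome, had 230.4, 250.1, 287 and 276 CPM in WT and 147, 157, 145 and 205 CPM in vehicle-treated Ncf1-/- libraries. Replicate 4 stood above the other vehicle-treated libraries and below all WT ones, and the log2 fold change was -0.67 ± 0.13 (edgeR adjusted p = 0.000467). Its soluble partner Npc2, which hands cholesterol to Npc1, was not called, and neither were Lamp2 nor the calcium channel Mcoln1.

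Lamp1 had 544, 571, 669 and 580.0 CPM in WT and 489.6, 477, 516 and 514 CPM in vehicle-treated Ncf1-/- libraries. The difference was small, a log2 fold change of -0.24 ± 0.09 (edgeR adjusted p = 0.0276), although no library overlapped. The call was lost without vehicle-treated replicate 1 or 2 or WT replicate 3 (adjusted p = 0.0676 to 0.0873). Cln3, mutated in juvenile neuronal ceroid lipofuscinosis, fell by 0.26 on the log2 scale (SE 0.08, edgeR adjusted p = 0.017), a call that was lost without WT replicate 3 (adjusted p = 0.0517). Among the cofactors, Psap had 843, 922, 1004 and 1075 CPM in WT and 684, 641, 693 and 659.8 CPM in vehicle-treated Ncf1-/- libraries. Every Ncf1-/- library lay below every WT one, at a log2 fold change of -0.52 ± 0.09 (edgeR adjusted p = 0.000394). The GM2 activator Gm2a and progranulin (Grn) were not called.

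Tfeb, the transcription factor named above, had 27.5, 29.5, 17.9 and 30.2 CPM in WT and 9.67, 9.43, 9.49 and 7.98 CPM in vehicle-treated Ncf1-/- libraries. WT replicate 3 was the lowest WT library and still lay above every vehicle-treated one. The log2 fold change was -1.52 ± 0.15 (edgeR adjusted p = 3.59e-06), the largest fall among the members. Of the 9 members with GTCACGTG in the promoter window, 3 were called higher (Gla, Naglu, Glb1) and 2 lower (Lamp1, Cln3). Of the 21 tested members with a promoter window that lacks it, 6 were called higher and 5 lower. Calls in both directions occurred with and without the site, where 28.9% of all genes tested were called higher and 28.2% lower. A part of the site in these levels was not tested.

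**Figure D3:**
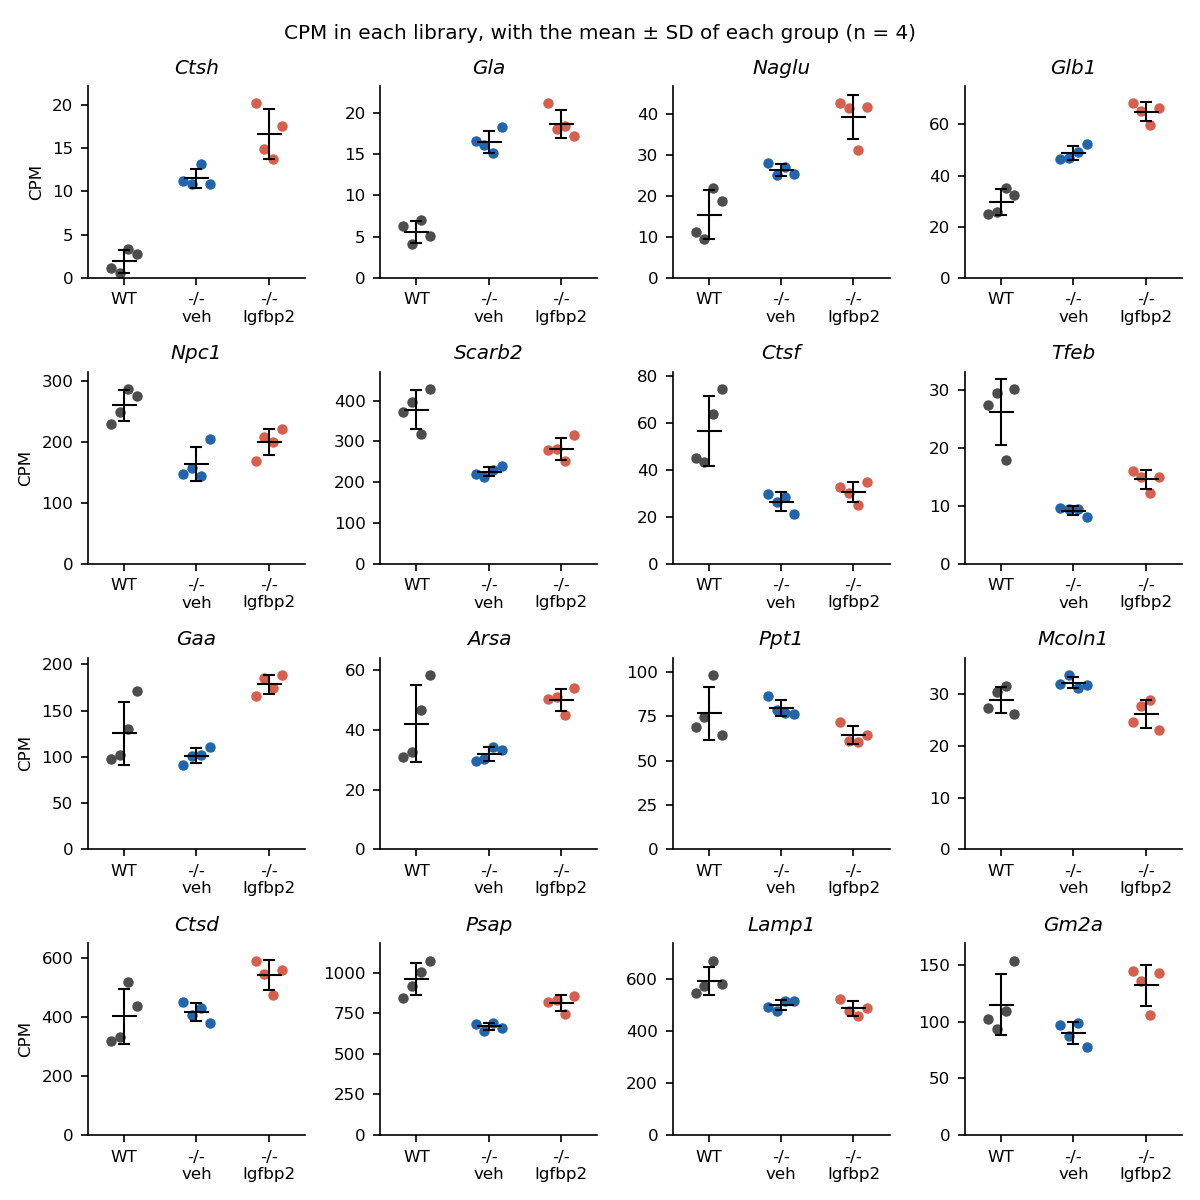
CPM of 16 members in each library (points) with the mean ± SD of each group (n = 4), on axes that start at 0. Ctsh, Gla, Naglu and Glb1 lie lowest in WT, Npc1, Scarb2, Ctsf and Tfeb lie lowest in vehicle-treated Ncf1-/- libraries by their means, and Gaa and Arsa lie apart between the 2 treatments.

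In all, 10 members lay above and 8 below WT without overlap of the 4 vehicle-treated Ncf1-/- and the 4 WT libraries, against 26.1% and 25.0% of all genes. The members varied more among WT libraries than genes in general. Their median coefficient of variation was 22.5% in WT (15.8% for all genes), 5.91% with vehicle (10.1%) and 8.77% with Igfbp2 (11.3%). All 34 members had their highest WT value in replicate 3 or 4, as 54.9% of all genes did. The lowest WT value was in replicate 1 or 2 for 30 members and for 46.4% of all genes. The members together took 0.408%, 0.430%, 0.600% and 0.531% of the counts of WT replicates 1 to 4, and 0.466% to 0.499% in the 8 Ncf1-/- libraries. By their sums, oligodendrocyte markers were lowest and NSC and astrocyte markers highest among WT libraries in replicate 3, and their part in the members' levels was not tested. In such bulk samples fewer cells of a type and less RNA per cell cannot be told apart. Without WT replicate 3 the test called 16 members higher and 6 lower, without replicate 4 it called 11 and 9, and without both, an alternative chosen after the data were seen, 18 and 7. When library totals were used without TMM factors, 15 were called higher and 6 lower, while the median of all genes moved to 0.19.

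**Figure D4:**
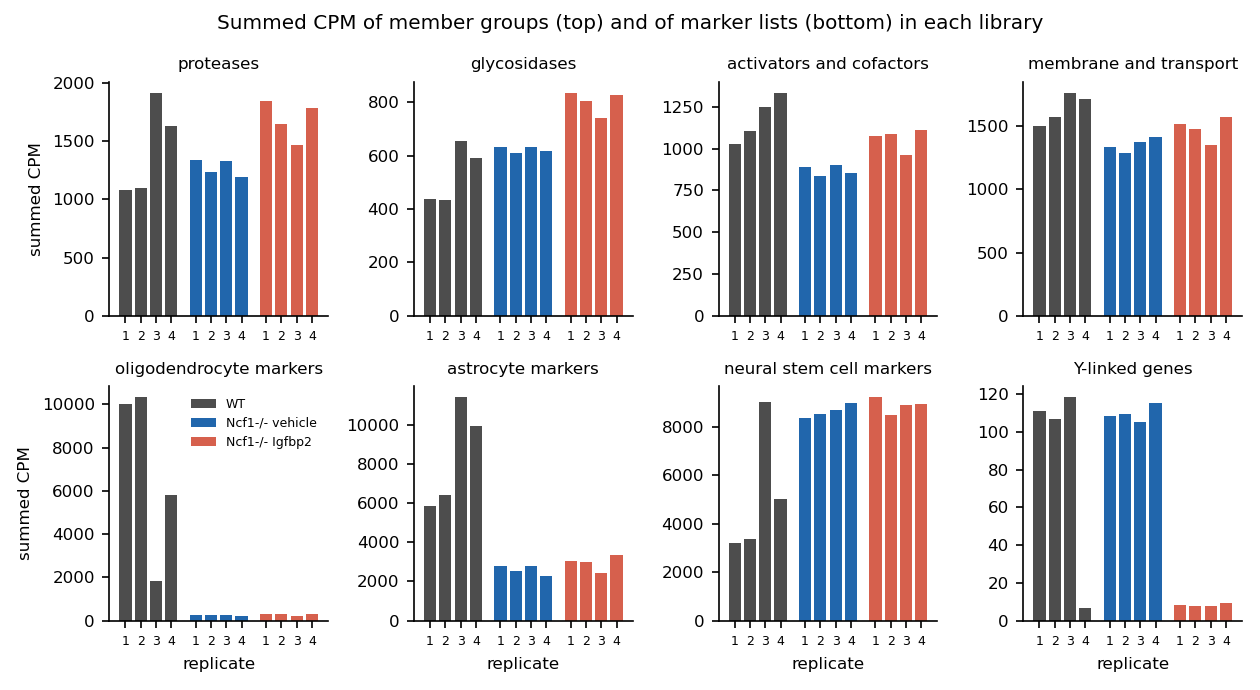
Summed CPM in each of the 12 libraries of 4 role groups of members (top) and of 3 marker lists and the Y-linked genes (bottom), as bars from 0 with WT in grey, vehicle-treated Ncf1-/- in blue and Igfbp2-treated Ncf1-/- in red. In WT replicate 3 the oligodendrocyte markers are low (1849 CPM) and the proteases high (1919 CPM), and the Y-linked genes are low in WT replicate 4 and in all Igfbp2-treated libraries (6.46 to 9.18 CPM).

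With Igfbp2, 8 members were called higher and 1 lower than with vehicle in Ncf1-/- NSCs. Of all genes tested, 14.2% were called higher and 10.7% lower, against 23.5% and 2.94% of the members. The median log2 fold change was 0.28 for the members and 0.04 for all genes, and 28 of 34 members had a value above 0. The 4 treated libraries lay above the 4 vehicle-treated ones without overlap for 18 members and below for 2, against 19.3% and 14.7% of all genes. The 8 members that rose were Gaa, Tfeb, Arsa, Gm2a, Manba, Glb1, Scarb2 and Psap, and the member that fell was Mcoln1. Between the same treatments 3 of 5 tested mesenchymal and vascular markers were called higher and 2 of 7 neuron markers lower, and the summed levels of both lists, given above, did not overlap. Their part in the members' values was not tested.

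The largest rise was that of Gaa, the acid alpha-glucosidase that degrades glycogen in lysosomes. It had 90.7, 100.5, 102 and 111 CPM with vehicle and 166, 185, 175 and 189 CPM with Igfbp2, and 98.1, 102, 130.1 and 171 CPM in WT libraries. The treatments were far apart, and the log2 fold change was 0.82 ± 0.15 (edgeR adjusted p = 0.00295). Tfeb had 9.67, 9.43, 9.49 and 7.98 CPM with vehicle and 16, 14.97, 12.2 and 15.02 CPM with Igfbp2. The log2 fold change was 0.67 ± 0.16 (edgeR adjusted p = 0.00942), and the treated libraries stayed below all WT libraries, the lowest of which had 17.9 CPM.

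Arsa, which desulfates sulfatide, a lipid of myelin, had 29.4, 30.3, 34.3 and 33.4 CPM with vehicle and 50.2, 51.1, 45.0 and 54.0 CPM with Igfbp2, a log2 fold change of 0.65 ± 0.17 (edgeR adjusted p = 0.0151). The 2 treatments did not overlap, while the WT libraries spread over both, at 30.9, 32.5, 46.5 and 58.3 CPM. Gm2a, which lifts ganglioside GM2 out of the membrane for Hexa, had 97.0, 87.0, 98.8 and 77.3 CPM with vehicle and 145, 136, 106 and 143 CPM with Igfbp2. Replicate 3 was the lowest treated library, as it was for 27 of the 34 members and for 29.0% of all genes. The log2 fold change was 0.55 ± 0.15 (edgeR adjusted p = 0.0202). That call was lost without vehicle-treated replicate 2 or Igfbp2-treated replicate 1, 2 or 4 (adjusted p = 0.0577 to 0.062).

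Glb1 rose further with Igfbp2, to 68.2, 65.3, 59.8 and 66.5 CPM, a log2 fold change of 0.41 ± 0.11 (edgeR adjusted p = 0.0156), and without vehicle-treated replicate 2 its adjusted p was 0.051. Manba (0.43 ± 0.15, edgeR adjusted p = 0.0499), Scarb2 (0.32 ± 0.10, adjusted p = 0.037) and Psap (0.28 ± 0.09, adjusted p = 0.0444) passed narrowly. Each of these 3 calls was lost when any one of 9 of the 12 libraries was left out, among them all 4 Igfbp2-treated ones (adjusted p of 0.0506 to 0.134, 0.0512 to 0.155 and 0.0553 to 0.143). Psap had 822, 832, 747 and 854 CPM with Igfbp2, above every vehicle-treated library and within or below the range of the WT libraries. Scarb2 had 279, 282, 251 and 317 CPM with Igfbp2, above every vehicle-treated library and below every WT library, though replicate 4 lay close under WT replicate 3.

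Mcoln1, the calcium channel TRPML1 of the lysosomal membrane, was the only member called lower with Igfbp2. It had 32.0, 33.7, 31.2 and 31.8 CPM with vehicle and 24.6, 27.8, 28.9 and 23.1 CPM with Igfbp2, without overlap, at a log2 fold change of -0.30 ± 0.09 (edgeR adjusted p = 0.026). The call was lost without vehicle-treated replicate 1 or 2 or Igfbp2-treated replicate 1 or 4 (adjusted p = 0.0519 to 0.0777). Ppt1, which removes fatty acids from lipidated proteins, had 86.3, 78.5, 77.1 and 76.2 CPM with vehicle and 71.9, 60.8, 60.7 and 64.3 CPM with Igfbp2. These did not overlap either, but Ppt1 was not called (-0.30 ± 0.12, edgeR adjusted p = 0.0776).

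Lipa, Cln3 and Lamp1 had fold changes close to 0, and none of them was called. Lipa had 28.02, 27.1, 22.5 and 30.05 CPM with Igfbp2 (log2 fold change -0.07 ± 0.11, edgeR adjusted p = 0.697). Cln3 had 20.6, 23.1, 19.7 and 20.3 CPM with Igfbp2 against 21.9, 22.7, 22.03 and 20.6 CPM with vehicle (-0.06 ± 0.08, edgeR adjusted p = 0.631). Lamp1, with 522, 477, 455 and 489 CPM, overlapped with the vehicle-treated libraries as well (-0.04 ± 0.09, edgeR adjusted p = 0.765).

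No protease was called with Igfbp2 in the fit of all 12 libraries, although all 8 tested had a fold change above 0 and 6 of them, Ctsb, Ctsd, Ctsh, Ctsl, Ctsz and Tpp1, did not overlap between treatments. In the 8 Ncf1-/- libraries alone, with or without the replicate block, Ctsb, Ctsd, Ctsh, Ctsz and Tpp1 were called higher, and DESeq2 on all libraries called Ctsb, Ctsd and Ctsz. Ctsd had 589.9, 544, 473 and 559 CPM with Igfbp2, above every vehicle-treated library (0.38 ± 0.14, edgeR adjusted p = 0.071). Ctsb had 464, 418, 467 and 406 CPM with vehicle and 723, 622, 542 and 704 CPM with Igfbp2, apart as well. Naglu, with 42.5, 41.3, 31.3 and 41.7 CPM, was not called at 0.58 ± 0.21 (edgeR adjusted p = 0.0621). The test takes its spread from all 12 libraries, WT included.

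Counts in this comparison moved with the libraries and the scaling. Without WT replicate 3, which is in neither treatment, 17 members were called higher and 2 lower. In the 8 Ncf1-/- libraries alone the counts were 17 and 2, and with the replicate numbers as a block in these 8 they were again 17 and 2, with Psap lost (adjusted p = 0.0557). Besides the proteases named above, Gusb, Naglu, Fuca1 and Npc2 were called higher and Ppt1 lower in both of these fits, and Npc1 was called higher with the block. Without vehicle-treated replicate 2 only 3 were called higher, without vehicle-treated replicate 1 or 3 or Igfbp2-treated replicate 3 there were 5, and without Igfbp2-treated replicate 1, 2 or 4 there were 4. When plain library totals replaced the TMM factors, 2 members were called higher and 5 lower, and the median of all genes moved to -0.23. On log2(TPM + 1), where limma called none higher and 6 lower, the median of all genes was -0.30, and the 5 short structural RNAs took 62.1% to 72.3% of TPM with Igfbp2 against 56.0% to 60.3% with vehicle. The directions above are therefore relative to the bulk of the other genes.

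Against WT, Igfbp2-treated Ncf1-/- NSCs had 15 members called higher and 7 lower, where 31.6% and 30.8% of all genes were. This comparison shares its libraries with the other comparisons. Of the 11 glycosidases 9 were called higher, among them Gla (log2 fold change 1.73 ± 0.15), Naglu (1.34 ± 0.22), Glb1 (1.14 ± 0.11), Manba (1.09 ± 0.15) and Gusb (0.97 ± 0.13). Hexa (0.57 ± 0.18) and Gaa (0.51 ± 0.15), which were not called with vehicle against WT, were among the 9, and both overlapped with WT libraries. Hexa was lost without Igfbp2-treated replicate 1 or WT replicate 2 (edgeR adjusted p = 0.0553 to 0.065), and Gaa without WT replicate 2 (adjusted p = 0.0519).

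Ctsh was 3.06 ± 0.35 and Ctsz 1.05 ± 0.20 higher than in WT on the log2 scale, with no overlap between groups for either. Npc2 was 0.56 ± 0.14 higher and Ctsd 0.43 ± 0.14 higher (edgeR adjusted p = 0.0186), and the call of Ctsd was lost without Igfbp2-treated replicate 1 or 2 or WT replicate 1 or 2 (adjusted p = 0.0558 to 0.0911). The members called lower were Ctsf (-0.89 ± 0.18), Tfeb (-0.85 ± 0.15), Scarb2 (-0.42 ± 0.10), Npc1 (-0.38 ± 0.12), Cln3 (-0.32 ± 0.08), Lamp1 (-0.28 ± 0.09) and Psap (-0.24 ± 0.09). Psap lost its call without vehicle-treated replicate 1 or 2 or WT replicate 3 (adjusted p = 0.0561 to 0.0815). The 6 members with a log2 fold change of at least 1 against WT were Ctsh, Gla, Naglu, Glb1, Manba and Ctsz, and none was lower by as much.

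Other genes of the lysosome were read from lists written from general knowledge, and their counts stand against the same shares of all genes, 28.9% higher and 28.2% lower against WT and 14.2% and 10.7% with Igfbp2. Of 28 other lysosomal hydrolases tested, 9 were called higher and 10 lower when vehicle-treated Ncf1-/- was set against WT, and 12 higher and 1 lower with Igfbp2. The highest fold change against WT was that of Ctsc, the dipeptidyl peptidase that activates serine proteases, at 1.76 ± 0.47 on the log2 scale, with 64.6 CPM in WT replicate 3 and 9.07 to 20.4 CPM in the other WT libraries. The lowest was that of Naaa, which degrades N-acylethanolamines, at -4.28 ± 0.20, and Naaa rose with Igfbp2 by 1.02 ± 0.21 (edgeR adjusted p = 0.00497). Of 19 tested subunits of the V-ATPase, the proton pump that acidifies the lysosome, 3 were called higher and 8 lower in Ncf1-/- than in WT NSCs, from Tcirg1 (1.18 ± 0.18) to Atp6v0a2 (-0.87 ± 0.13), and 1 higher and none lower with Igfbp2.

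Of 27 other lysosomal membrane proteins tested, 4 were called higher and 8 lower in Ncf1-/- than in WT NSCs, with Litaf highest (1.51 ± 0.21) and the lipid transporter Abca2, which oligodendrocytes express strongly, lowest (-1.998 ± 0.19). With Igfbp2, 2 of these were called higher and 4 lower. Of 15 genes for the delivery of enzymes, 5 were called higher and 6 lower against WT, between Nagpa, the uncovering enzyme of the mannose-6-phosphate tag (0.52 ± 0.15), and the sorting receptor Sorl1 (-1.06 ± 0.24). With Igfbp2 5 were higher and 1 lower, and Sorl1 had 68.4, 100.7, 109 and 100.7 CPM against 23.6, 28.6, 30.02 and 42.4 CPM with vehicle (1.60 ± 0.24, edgeR adjusted p = 0.00122).

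Of 20 tested MiT/TFE factors and regulators of mTORC1 at the lysosome, 3 were called higher and 8 lower in Ncf1-/- than in WT NSCs, from Lamtor5 (0.39 ± 0.10) to Mitf, a relative of Tfeb (-2.17 ± 0.29). With Igfbp2, 2 were higher and 4 lower. Of the 4 cathepsin inhibitors tested, Cst6 was highest against WT (1.96 ± 0.32, at 0.136 to 1.88 CPM over the 12 libraries) and Cst3, cystatin C, lowest (-1.70 ± 0.16), with 1 called in each direction. With Igfbp2, Cst6 was the inhibitor called higher and none was lower.

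**Figure D5:**
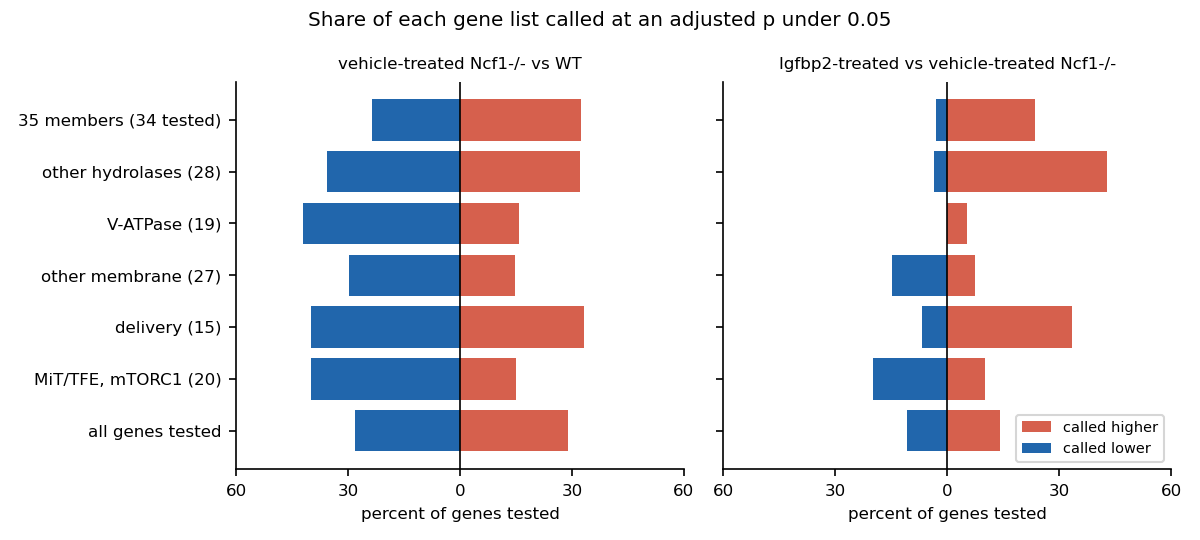
Percent of the tested genes of each list called higher (red, right) or lower (blue, left) at an adjusted p under 0.05, for vehicle-treated Ncf1-/- against WT (left panel) and Igfbp2-treated against vehicle-treated Ncf1-/- (right panel), with all 15706 genes in the bottom bars. With Igfbp2 the members (23.5% higher) and the other hydrolases (42.9% higher) lie above the 14.2% of all genes, and the V-ATPase subunits (5.26%) below it.

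Exons of 14 members share bases with another annotated gene, mostly on the opposite strand, and the strand setting of the counting is not given in the sources used here. The largest shares were those of Ctsd with the gene model Gm49369 on the same strand (34.4% of its exon bases), Ctsl with an antisense gene (26.8%) and Arsa with an antisense gene (18.8%). The partners of Ctsd and Ctsl were not among the genes counted, and the antisense gene of Arsa had 227 counts in all, against 10716 for Arsa. Reads of a same-strand pair could not be told apart where they overlap. Those of opposite strands could not be either if the counting ignored the strand.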

How the data were processed

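Ribosome-depleted RNA of 12 NSC cultures, 1 library each, was sequenced by the authors, aligned with Bowtie2 and quantified per gene with RSEM against GRCm38 (from the submitters' processing notes, without versions). The deposited files give expected counts, which are estimated and not normalized, TPM and FPKM per gene and library. The FPKM were not used. The merged table deposited by the authors holds a score, TPM multiplied by the number of transcripts, and served only for gene symbols. Expected counts were rounded and fitted in edgeR 4.0.16 (R 4.3.3) with filterByExpr, TMM factors, 3 group means and no covariate. Calls were made at an adjusted p (Benjamini-Hochberg over 15706 genes) under 0.05. The study's methods state that NSCs of each pup were grown apart and that replicates are pups, which the labels do not give. At 18201622 to 34086554 counts per library, depth limits only members at a few CPM.

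The rule for the members uses no measured value, but members and lists were chosen with earlier results of these data known and are not independent of them. Values in every library are given for the 4 members with the highest and the 4 with the lowest fold change in Ncf1-/- against WT and in Igfbp2 against vehicle, for Ctsd, Lamp1, Tfeb and Psap, and for others chosen after their values were seen (Asah1, Gm2a, Ctsb). Of the other lists the highest and the lowest against WT are named. Gene positions came from GENCODE M21 and promoters from RefSeq (GRCm38.p6). Alternatives were DESeq2 1.42.0, limma 3.58.1 on log2(TPM + 1) and log2(TPM + 0.1), the study's own ANOVA on TPM, other filters, scalings and thresholds, and each library left out. The study's methods pair the vehicle-treated and Igfbp2-treated Ncf1-/- cultures by animal. The replicate numbers used here follow the order of the labels. With group means removed, the correlation across genes of same-numbered cultures was -0.11 to 0.10 over 4 pairs, and -0.355 to 0.383 over 12 pairs with different numbers, and Y-linked levels differed within every same-numbered pair.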

Additional observations from a re-analysis of the deposited data

Results flagged for a closer look

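In 102 sets of 4 libraries, 1 for each member and group, 3 held a library whose gap to its nearest neighbour exceeded Dixon's critical value, and chance gives about 1 in 20. Gusb had 51.3 CPM in Igfbp2-treated replicate 3, against 55.7 to 56.5 CPM in the other libraries of that group. Naglu had 31.3 CPM in the same library, against 41.3 to 42.5 CPM. Tfeb had 7.98 CPM in vehicle-treated replicate 4, against 9.43 to 9.67 CPM in the others.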

How the results depend on the processing

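Counts of members called (higher, lower) were 11 and 8 in Ncf1-/- against WT, 8 and 1 in Igfbp2-treated against vehicle-treated Ncf1-/-, and 15 and 7 in Igfbp2-treated Ncf1-/- against WT. With a log2 fold change of at least 1 also required, they were 2 and 2, 0 and 0, and 6 and 0. For Igfbp2 against vehicle alone they were 2 and 5 with library totals, 5 and 0 with no filter on low counts, 5 and 2 at a mean of at least 5 CPM, 17 and 2 with only the 8 libraries compared, 17 and 2 with the replicate block, and 14 and 2 with DESeq2. With limma on log2(TPM + 1), and also on log2(TPM + 0.1), 5 were lower in Ncf1-/- against WT, 0 and 6 with Igfbp2 against vehicle, and 8 and 11 against WT. The study's own test gave 3 and 2, 0 and 1, and 1 and 5. Without WT replicates 3 and 4, chosen after the data were seen, 18 were higher in Ncf1-/- against WT, and 18 and 2 with Igfbp2 against vehicle. Leaving out 1 library at a time gave 10 to 16 and 6 to 12, then 3 to 17 and 0 to 2, then 12 to 20 and 6 to 9. The replicate block lost the call of Psap, kept the other 8 and gained 11, among them Ctsd, Naglu and Ppt1. It pairs cultures in the order of their labels. Y-linked levels differed within every such pair, so the block cannot be taken as the pairing in the study's methods. Same-numbered cultures did not deviate together.

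With each named fold change taken once under each alternative, direction and call were kept 1013 times, the call was lost 144 times and gained 34 times, and the direction turned 21 times. With 1 library left out, Ctsd in Ncf1-/- against WT ranged from -0.045 without WT replicate 1 to 0.20 without WT replicate 3, and was also below 0 without WT replicate 2. Without both WT replicates 3 and 4 it was 0.31 and called (edgeR adjusted p = 0.0188). With Igfbp2 against vehicle on log2(TPM + 1), Ctsd was -0.11, Manba -0.087, Glb1 -0.064, Psap -0.20 and Scarb2 -0.16. On log2(TPM + 0.1) they were -0.11, -0.10, -0.068, -0.20 and -0.16, and in the study's own test -0.10, -0.086, -0.066, -0.19 and -0.16, where the median of all genes was -0.30, -0.42 and -0.10. Against WT, Neu1 was -0.14, -0.16 and -0.14 in these fits, and Ctsd was -0.036 in the study's own test. In these TPM fits the median of all genes was also below 0, and the cause was not tested. Ctsh, Gla, Lipa, Scarb2 and Tfeb were called in Ncf1-/- against WT under 21 of 21 alternatives at the same threshold. Depth limits Ctss, which had no count.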
